A study of Mus musculus with 9 samples.

Results

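The RASSF genes encode the Ras association domain family, a group of scaffold proteins without enzymatic activity of their own. The 10 mouse genes Rassf1 to Rassf10 were taken by name, as the complete family, and all 10 were found by Entrez identifier among the 18755 genes counted. No level or fold change decided which member entered. The family as a topic, however, was chosen on the known differences between tumors treated with the FAK inhibitor and tumors treated with vehicle, so that the fold changes and calls of its members are given below as a description, without p values, and support nothing by themselves.

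The tumors arose from 1000000 cells of 4T1, a metastatic mammary carcinoma line of the mouse, injected into a mammary fat pad of female BALB/c mice 6 to 10 weeks of age. From day 15 after injection the mice received either 50 mg/kg BI 853520 (BI), an inhibitor of the focal adhesion kinase FAK, or 0.5% Natrosol, the vehicle, for 5 days. RNA of unsorted tumor pieces was sequenced from 3 vehicle-treated and 6 BI-treated tumors, numbered here within each group in order of deposition. All tumors came from a single cell line in a host of the same strain with its own immune cells, the authors selected the tumors on the quality of their RNA, and the labels do not say whether the tumors of a group came from separate experiments, so that the spread measured is that between these samples.

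Total counts per tumor ranged from 21727879 to 33850245 in the vehicle group and from 16931607 to 22349873 in the BI group. The Pearson correlation of log2 CPM (CPM, counts scaled to the library total and by edgeR's TMM method) between libraries, across genes that are not independent replicates, was between 0.983 and 0.991 within groups and between 0.971 and 0.983 across groups. Epithelial markers were present at a summed 961 to 1186 CPM in vehicle-treated and 756 to 964 CPM in BI-treated tumors, most of it from the keratins Krt8 and Krt18, while Epcam, with 2.13 ± 0.603 CPM (SD, n = 3) in the vehicle group, was low, and its level in the BI group was 4.42 ± 2.96 CPM (n = 6).

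Each RASSF protein carries a Ras association domain, through which several members bind active RAS or RAP GTPases. Rassf1 to Rassf6 also carry a SARAH domain at the C-terminus, a coiled region that pairs with the same domain of the MST kinases and thereby reaches the Hippo pathway. Rassf7 to Rassf10 have the Ras association domain near the N-terminus and lack SARAH. Several members, RASSF1A above all, are known as tumor suppressors that human carcinomas silence by promoter methylation, and a short form of Rassf5, RAPL, is known for activating integrins of lymphocytes downstream of RAP1.

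The promoters of the 5 genes that moved between the groups are shown first, since these members divide into a set that was higher and a set that was lower after BI treatment. RefSeq promoter sequences (build GRCm38.p6, 300 bases around a gene's start, most of them before it, 5′ to 3′ on the strand of the gene) were at hand for 6 of the 10 members, with 7 entries in all, and are not the build of the counts. Both strands were searched for 3 motifs, and capitals mark the matches to GAGGAA, the core of sites for ETS factors of the PU.1 type, to CATTCC, the TEAD site, and to CACGTG, the E-box. Rassf2, Rassf4 and Rassf5 are the members that were higher, and Rassf6 and Rassf7 those that were lower.
Rassf2, chr2:132030275-132030574, minus strand: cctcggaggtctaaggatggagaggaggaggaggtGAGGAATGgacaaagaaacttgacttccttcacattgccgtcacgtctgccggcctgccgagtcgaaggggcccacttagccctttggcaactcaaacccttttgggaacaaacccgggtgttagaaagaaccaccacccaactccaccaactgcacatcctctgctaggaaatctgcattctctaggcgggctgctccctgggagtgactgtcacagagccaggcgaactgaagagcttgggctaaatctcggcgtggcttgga
Rassf4, chr6:116673787-116674086, minus strand: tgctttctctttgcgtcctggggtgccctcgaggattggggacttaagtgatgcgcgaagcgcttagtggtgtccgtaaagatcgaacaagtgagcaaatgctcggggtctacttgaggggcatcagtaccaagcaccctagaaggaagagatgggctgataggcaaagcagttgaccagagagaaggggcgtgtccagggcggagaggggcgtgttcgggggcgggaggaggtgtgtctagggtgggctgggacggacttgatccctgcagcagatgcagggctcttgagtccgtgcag
Rassf5, chr1:131200136-131200435, minus strand: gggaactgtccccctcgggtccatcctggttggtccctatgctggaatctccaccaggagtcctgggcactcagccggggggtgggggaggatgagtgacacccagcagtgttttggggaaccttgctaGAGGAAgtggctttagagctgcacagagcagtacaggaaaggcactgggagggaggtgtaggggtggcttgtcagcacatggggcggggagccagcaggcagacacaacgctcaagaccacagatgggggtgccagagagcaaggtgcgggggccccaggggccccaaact
Rassf6, chr5:90640478-90640777, minus strand: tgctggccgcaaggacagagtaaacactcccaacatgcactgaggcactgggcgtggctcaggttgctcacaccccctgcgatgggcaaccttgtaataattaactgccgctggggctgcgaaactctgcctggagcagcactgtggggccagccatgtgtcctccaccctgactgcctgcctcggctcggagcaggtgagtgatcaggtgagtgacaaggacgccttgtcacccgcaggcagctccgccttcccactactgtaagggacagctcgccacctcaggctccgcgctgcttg
Rassf7, chr7:141215610-141215909, plus strand: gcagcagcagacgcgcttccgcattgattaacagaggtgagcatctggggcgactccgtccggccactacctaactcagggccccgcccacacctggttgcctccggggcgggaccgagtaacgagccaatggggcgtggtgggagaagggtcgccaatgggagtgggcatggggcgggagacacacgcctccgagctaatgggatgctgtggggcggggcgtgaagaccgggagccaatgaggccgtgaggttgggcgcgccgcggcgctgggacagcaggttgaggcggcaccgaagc

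In the Rassf2 promoter, a GAGGAA match lay at position -215 from the start and overlapped a TEAD match at -213. The Rassf5 entry, which lies inside the gene rather than at its outer end, held a GAGGAA match at position -121. None of the motifs occurred in the entries of Rassf4, Rassf6, Rassf7 or either of the 2 entries of Rassf1. Over all 32851 promoters of the same length, 28.3% held the ETS core, 14.7% the TEAD site and 7.15% the E-box, so matches of this kind are common and say nothing about binding. CpG content separated the entries more clearly. The Rassf7 promoter and both Rassf1 promoters held 27 CpG dinucleotides each, more than 84.5% of all promoters, against 15 for Rassf4, 13 for Rassf6, 11 for Rassf2 and 5 for Rassf5. The median promoter had 7. Rassf7, which fell, and Rassf1, which was not called, had the same number.

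Between vehicle-treated and BI-treated tumors, 3 members with a SARAH domain were higher after treatment, Rassf2 by 2.03-fold, Rassf4 by 2.46-fold and Rassf5 by 1.66-fold. The members Rassf6 and Rassf7 were lower, at 0.564 and 0.573 of the vehicle level. Rassf1 and Rassf3, the members with the highest level per length in both groups, and Rassf8 were not called, and Rassf9 and Rassf10 had too few counts to be tested. The threshold was 0.05 on p values adjusted by Benjamini-Hochberg over all 13966 genes of edgeR's quasi-likelihood test. Of the 8 members tested, 3 rose, where 14.6% of all genes tested rose, and 2 fell, where 14.1% of all genes tested fell. The same 5 members also met the cutoffs of the study, an unadjusted p up to 0.05 together with a change of about 1.5-fold, which 9.59% of all genes passed upward and 3.57% downward. In each of these 5 the groups did not overlap. Over all genes tested, 14.1% had every BI-treated tumor above every vehicle-treated tumor and 14.0% had every one below. Because the family was taken up with this contrast known, nothing is read from these shares.

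**Figure D1:**
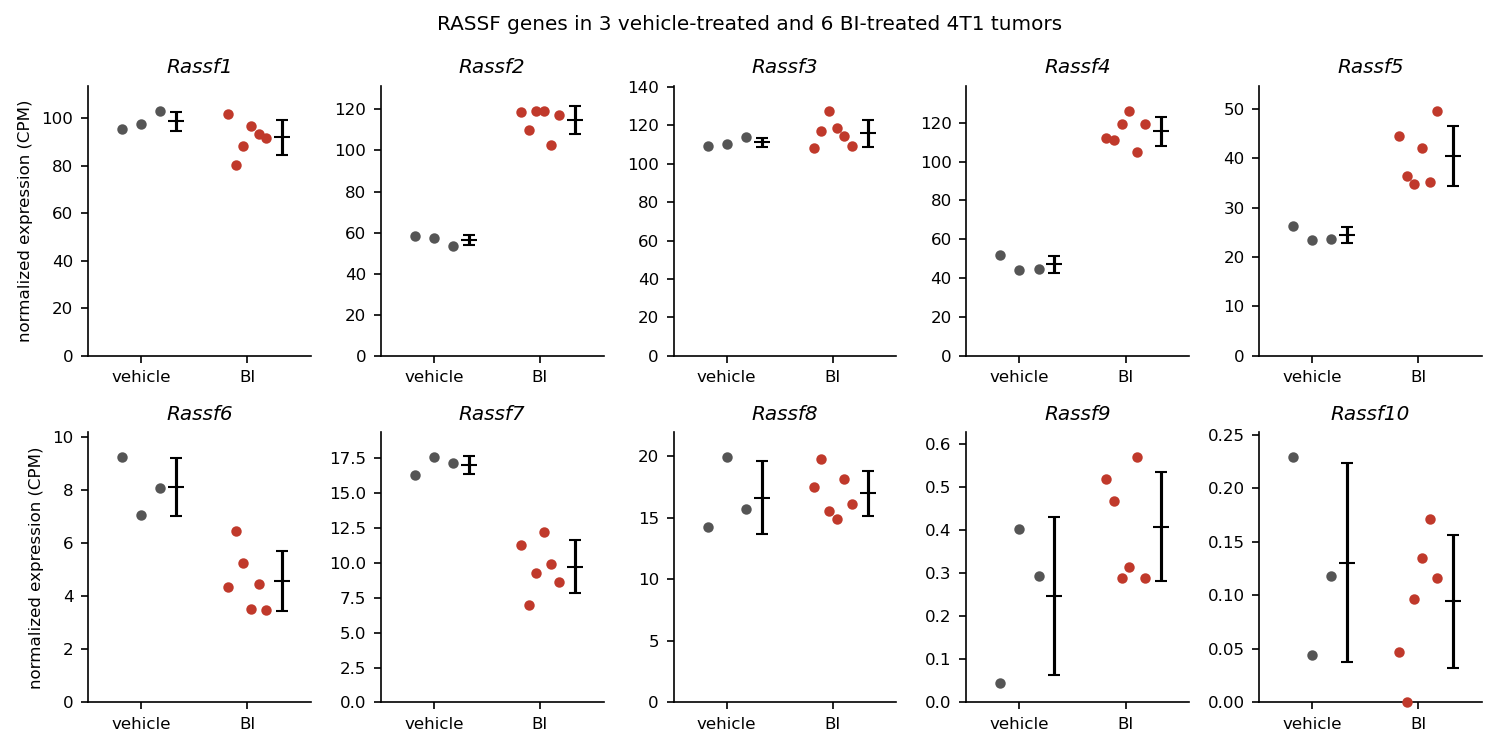
Normalized expression in CPM (vertical axis, from 0, a separate scale for each gene) of the 10 RASSF genes in 3 vehicle-treated (grey) and 6 BI-treated (red) tumors. Each point is 1 tumor, and the horizontal mark with its bar gives the mean and SD. Rassf2, Rassf4 and Rassf5 lie higher and Rassf6 and Rassf7 lower in all 6 BI-treated tumors than anywhere in the vehicle group, while the points of Rassf9 and Rassf10 stay below 1 CPM.

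Rassf4 (Entrez gene 213391) spans chr6:116583026-116623854 (mm9, minus strand). Its protein binds the MST kinases through SARAH. The vehicle-treated tumors had 52.0, 44.5 and 44.7 CPM, and the BI-treated tumors between 105 and 126 CPM with a median of 115.7. No tumor fell between the groups, and the lowest BI-treated tumor still lay far above the highest vehicle-treated tumor. The log2 fold change of 1.30 (standard error 0.0764) was above that of 98.2% of the genes tested. Omitting any single tumor gave values from 1.26 to 1.37.

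Rassf2 (Entrez gene 215653), at chr2:131815151-131855994 (mm9, minus strand), encodes a partner of the MST kinases. Its levels were 58.4, 57.2 and 53.6 CPM with vehicle and between 103 and 119 CPM, with a median of 118 CPM, with BI. The spread within each group was small against the gap, with an SD of 2.50 CPM for vehicle and 6.81 CPM for BI. This amounted to a log2 fold change of 1.02 (standard error 0.0649).

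Rassf5 (Entrez gene 54354), also known as Nore1 and Rapl, spans chr1:133072987-133141835 (mm9, minus strand). Vehicle-treated tumors had 26.2, 23.4 and 23.6 CPM, and BI-treated tumors between 34.8 and 49.6 CPM with a median of 39.2. The BI-treated tumors were more scattered than for Rassf2 and Rassf4, with BI replicate 6 the highest and BI replicate 3 the lowest, but none reached down to the vehicle group. The log2 fold change was 0.73 (standard error 0.117), and omitting any single tumor gave 0.66 to 0.78. The counts sum the long form and the short form RAPL, and 78 of the 3839 exon bases that GENCODE gives for Rassf5 on mm9 overlap those of Eif2d on the other strand.

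Rassf7 (Entrez gene 66985), a member without SARAH that is known for its role in mitotic spindle formation and in restraining JNK signaling through the kinase encoded by Map2k7, spans chr7:148401759-148404557 (mm9, plus strand). It had 16.3, 17.6 and 17.2 CPM in the vehicle group and between 6.99 and 12.2 CPM, with a median of 9.60, in the BI group. All BI-treated tumors were lower, and BI replicate 2 was the lowest. On the log2 scale Rassf7 fell by 0.80 (standard error 0.142).

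Rassf6 (Entrez gene 73246), at chr5:91032102-91069513 (mm9, minus strand), encodes a SARAH protein that promotes apoptosis. Vehicle-treated tumors had 9.26, 7.07 and 8.07 CPM, and BI-treated tumors between 3.48 and 6.47 CPM with a median of 4.40. The groups came close to each other, with vehicle replicate 2 the lowest of its group and BI replicate 2 the highest of its own. On the log2 scale Rassf6 fell by 0.83 (standard error 0.187), and the change lay between -0.95 and -0.73 when any single tumor was omitted. Its raw counts, not scaled for depth, were 158 to 274 per vehicle-treated tumor and 60 to 124 per BI-treated tumor.

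Rassf1 (Entrez gene 56289) spans chr9:107453886-107464594 (mm9, plus strand), and its proteins associate with microtubules and with the MST kinases. Its levels were 95.4, 97.3 and 103 CPM with vehicle and between 80.1 and 101.6 CPM with BI, where 4 of the 6 tumors lay below every vehicle-treated tumor. Its log2 fold change was -0.10 (standard error 0.0706) and was not called. The counts do not separate the forms RASSF1A and RASSF1C, which start from different promoters, and 2432 of 5425 exon bases of Rassf1 in GENCODE overlap the non-coding gene Gm9917 on the other strand. Whether the counting used strand is not given in the sources used here, so reads of the pair may not be told apart.

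Rassf3 (Entrez gene 192678), at chr10:120847406-120913306 (mm9, minus strand), is known as a regulator of p53 through Mdm2. It had 109 to 114 CPM with vehicle and 108 to 128 CPM with BI. Of the BI-treated tumors, 4 lay above and 2 below all vehicle-treated tumors, and the log2 fold change was 0.06 (standard error 0.0598). Rassf8 (Entrez gene 71323), at chr6:145695268-145769599 (mm9, plus strand), is known for a role at adherens junctions. It had 14.2, 19.9 and 15.7 CPM with vehicle and 14.9 to 19.8 CPM with BI, so that the vehicle-treated tumors spanned the whole BI group. The log2 fold change of Rassf8 was 0.03 (standard error 0.12).

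Rassf9 (Entrez gene 237504), at chr10:101974856-102009194 (mm9, plus strand), encodes a protein that binds the amidating enzyme Pam. It had 1, 9 and 10 counts in the vehicle-treated tumors and 5 to 11 counts in the BI-treated tumors. Rassf10 (Entrez gene 78748), at chr7:120097708-120099134 (mm9, plus strand) and listed as a pseudogene in the GENCODE annotation of mm9 but as protein-coding in RefSeq, had 5, 1 and 4 counts with vehicle and 0 to 3 with BI. Neither passed the filter on low counts. The limit that a count of 0 allows, 3 counts, came to between 0.0886 and 0.177 CPM over the 9 libraries and covers counting error only. Rassf10 was at or under this floor in every BI-treated tumor, and a difference between the groups was not detectable for it at this depth.

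Levels of different genes were compared per length, as RPKM (CPM divided by the deposited gene length in kilobases). The order depends on that length, which was 2130 bases for Rassf1, where GENCODE gives 5425 exon bases, and 3424 bases for Rassf3. In CPM the mean of Rassf3 was above that of Rassf1 with vehicle (111 and 98.6) and with BI (116 and 91.9). With BI, Rassf2 (115 CPM) and Rassf4 (116 CPM) were above Rassf1 as well. In vehicle-treated tumors Rassf1 led with 46.3 ± 1.91 RPKM (SD, n = 3), followed by Rassf3 with 32.5 ± 0.693 RPKM. Rassf2 (11.8 RPKM), Rassf7 (11.2), Rassf8 (9.59), Rassf4 (7.42) and Rassf5 (7.17) came next, and in this stretch the ranges of each pair of neighbors overlapped. Rassf6 stood clear below them at 4.15 ± 0.560 RPKM, and Rassf9 and Rassf10 were under 0.2 RPKM in every tumor of this group. In BI-treated tumors Rassf1 (43.1 ± 3.46 RPKM, n = 6) and Rassf3 (33.8 ± 2.09 RPKM) kept their places. Behind them the order was Rassf2 (23.9 RPKM), Rassf4 (18.2), Rassf5 (11.9), Rassf8 (9.79), Rassf7 (6.38) and Rassf6 (2.34). Here only Rassf5 and Rassf8 overlapped among neighbors, with Rassf5 the higher in 4 of 6 tumors. Rassf4, Rassf5 and Rassf8 had means below that of Rassf7 with vehicle and above it with BI. The ratio of Rassf4 to Rassf7 was 0.608 to 0.769 with vehicle and 2.39 to 3.82 with BI.

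The summed level of the 10 genes was 128 to 131 RPKM with vehicle and 142 to 156 RPKM with BI, so the composition of the family shifted more than its total. Rassf2, Rassf4 and Rassf5 together made up 19.1% to 21.9% of the sum in vehicle-treated tumors and 33.3% to 38.7% in BI-treated tumors. Rassf1 and Rassf3 made up 59.7% to 62.1% and 50.0% to 53.2%, although neither was called in its own level. Rassf6 and Rassf7 went from 11.6% to 12.0% down to 4.97% to 6.30%. These shares depend on the deposited gene lengths, restate the contrast on another scale and were not tested.

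**Figure D2:**
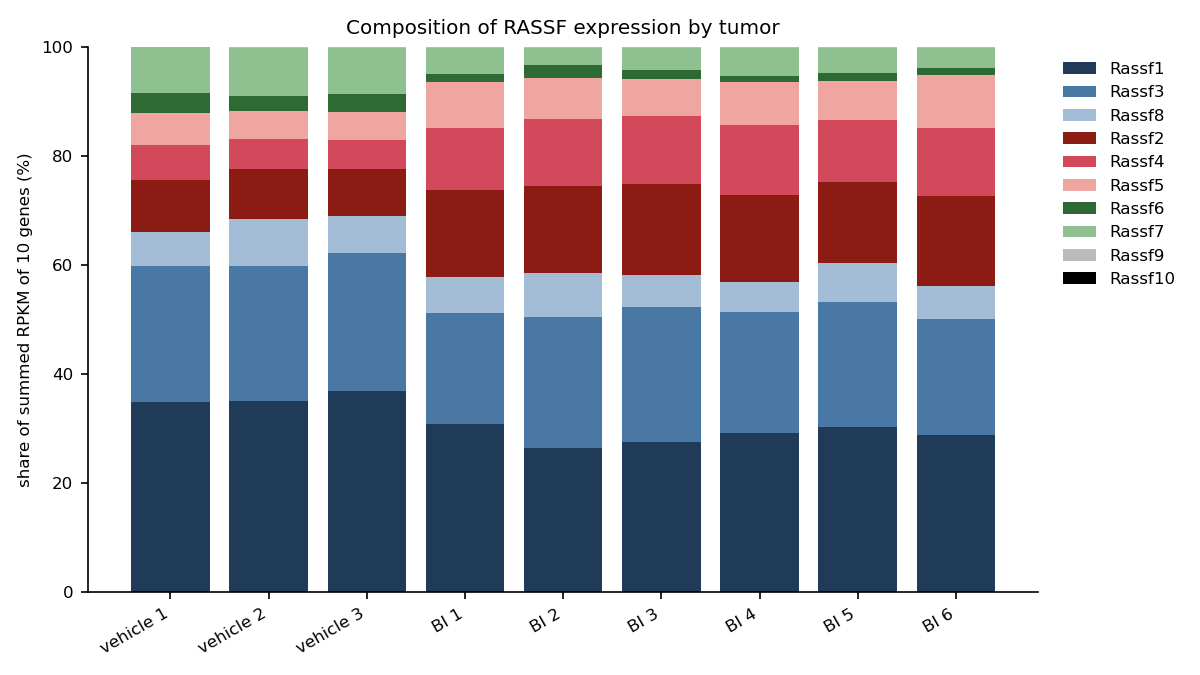
Share of each RASSF gene in the summed RPKM of the 10 genes (vertical axis, percent) in each of the 9 tumors (horizontal axis). The red bands of Rassf2, Rassf4 and Rassf5 widen from 19.1% to 21.9% in the vehicle-treated tumors to 33.3% to 38.7% in the BI-treated tumors, the green bands of Rassf6 and Rassf7 narrow, and Rassf9 and Rassf10 are too low to see.

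The members that were higher are also expressed in leukocytes, and markers of leukocytes were higher in the same tumors. In bulk tumor RNA, more cells of a type and more RNA per cell cannot be told apart. Of the 10 macrophage markers, 9 rose and none fell, and their summed level was between 1743 and 2318 CPM with vehicle and between 3428 and 4222 CPM with BI, a ratio of means of 1.91. Of the 9 T cell markers, 8 rose, and their sum went from 76.8 to 84.8 CPM to between 139.5 and 201 CPM, a ratio of 2.11. Of the 7 NK cell markers, 6 rose, with a ratio of 2.34 (33.95 to 44.96 CPM and 84.5 to 108 CPM). The highest of this list were Prf1 (means of 15.25 CPM with vehicle and 39.51 CPM with BI) and Klrk1 (9.79 and 23.63 CPM). Whether T cells contributed to the NK cell sum was not tested. In all 3 lists every BI-treated tumor was above every vehicle-treated tumor and no marker was at 0 in any tumor.

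Set against the summed macrophage markers, the members differed among themselves. Rassf2 amounted to 24.7 to 30.7 CPM per 1000 CPM of macrophage markers with vehicle and to 26.0 to 31.1 with BI, so that the groups overlapped on this scale. Rassf5 amounted to 10.1 to 13.5 and 8.61 to 13.1 and overlapped as well. Rassf4 went from 19.2 to 25.6 up to 26.3 to 31.7, and every BI-treated tumor was still above every vehicle-treated tumor. Per 1000 CPM of T cell markers, Rassf2 (638 to 744 with vehicle, 584 to 851 with BI), Rassf4 (533 to 614 and 595 to 803) and Rassf5 (281 to 309 and 178 to 319) had overlapping ranges but did not shift alike. For Rassf4, 4 of 6 BI-treated tumors lay above the whole vehicle group. For Rassf5, 5 of 6 lay below it, and only BI replicate 1 did not. For Rassf2, 1 lay above and 2 below. Per 1000 CPM of NK cell markers the ranges of all 3 genes overlapped. Rassf4 had 994 to 1310 with vehicle and 1110 to 1330 with BI, with 2 of 6 BI-treated tumors above the vehicle group. Rassf2 (1190 to 1680 and 1090 to 1410) had 3 below it, and Rassf5 (525 to 690 and 346 to 550) had 4 below it. The markers and the members come from the same libraries and the same contrast, and the part of leukocyte number in the rise of these genes was not tested.

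**Figure D3:**
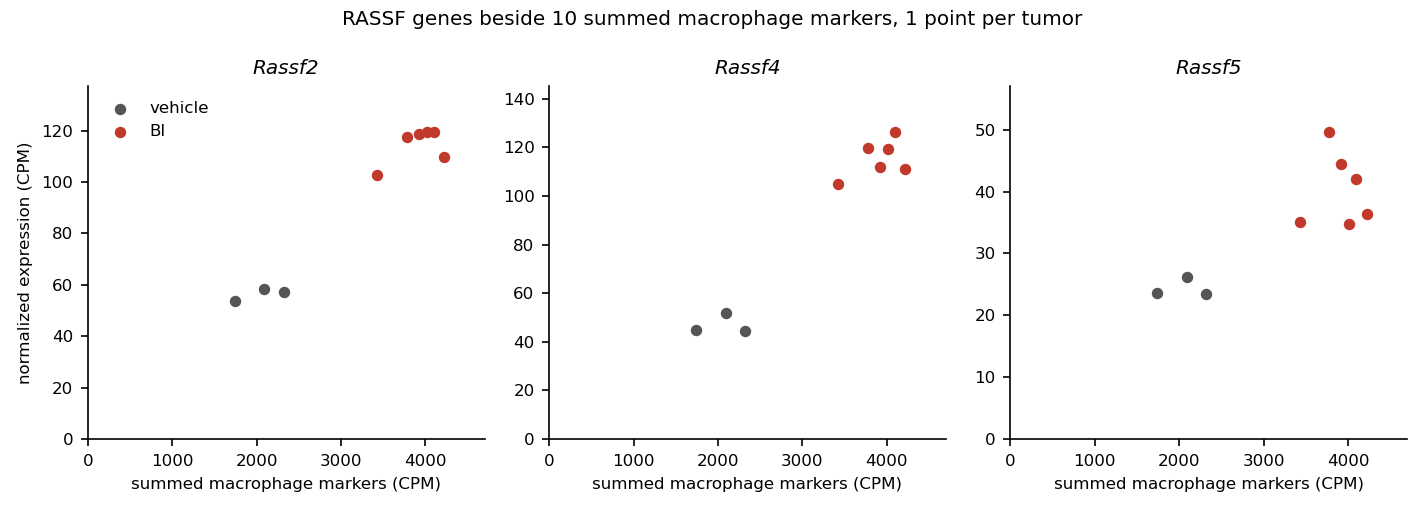
Normalized expression of Rassf2, Rassf4 and Rassf5 (vertical axes, CPM) against the summed level of 10 macrophage markers (horizontal axes, CPM), with 1 point per tumor and both axes starting at 0. The vehicle-treated tumors (grey) sit at 1743 to 2318 CPM of markers and the BI-treated tumors (red) at 3428 to 4222 CPM, and of the 3 genes only Rassf4 has ratios to the markers that do not overlap between the groups.

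Not all leukocyte lists moved the same way. Of the 6 neutrophil markers found, 4 fell and none rose, and their sum dropped from between 523 and 753 CPM to between 221 and 373 CPM (ratio 0.465). Per 1000 CPM of neutrophil markers, all 6 BI-treated tumors lay above the vehicle group for each of Rassf2, Rassf4 and Rassf5. The values with vehicle and BI were 75.9 to 112 and 276 to 540 for Rassf2. They were 59.1 to 99.5 and 282 to 540 for Rassf4, and 31.1 to 50.2 and 94.4 to 178 for Rassf5. The B cell list was low, with 4.83 to 8.02 CPM and 5.94 to 11.3 CPM in sum (ratio 1.37), 4 of 6 genes tested, 2 of them rising, and 3 genes at 0 in at least 1 tumor. Relative to this low sum, 6 of 6 BI-treated tumors lay above the vehicle group for Rassf4, 3 for Rassf2 and 2 for Rassf5. Among the other cell types the lists could show, 2 of 8 fibroblast markers rose (1906 to 3317 CPM and 2536 to 5706 CPM in sum, ratio 1.77). Of the endothelial markers, 3 of 7 rose (174 to 202 CPM and 200.4 to 286 CPM, ratio 1.29). Both sums were above the whole vehicle group in 5 of 6 BI-treated tumors. Rassf2, Rassf4 and Rassf5 were not set against these sums. No adipocyte marker (32.97 to 54.98 CPM and 50.9 to 252 CPM, ratio 2.25) and no skeletal muscle marker (6.14 to 18.4 CPM and 5.02 to 14.6 CPM, ratio 0.874, 2 genes at 0 in at least 1 tumor) was called.

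Rassf6 and Rassf7 were set against epithelial markers, of which 2 of 7 fell, Krt8 and Krt18, and none rose. Most of the summed level came from these 2 keratins, and the median log2 fold change of the list was 0.146. Among the genes not called, Epcam (1.06), Krt7 (0.59), Cdh1 (0.16) and Krt19 (0.15) had positive values and Krt14 (-0.85) a negative one. Per 1000 CPM of the 7 summed markers, Rassf6 amounted to 5.96 to 8.40 CPM with vehicle and 4.45 to 6.96 CPM with BI. Rassf7 amounted to 14.5 to 17.9 CPM and 7.25 to 16.2 CPM. Both ranges overlapped between the groups, with 4 of 6 BI-treated tumors below every vehicle-treated tumor for Rassf6 and 5 of 6 for Rassf7. For Rassf7 the overlap came from BI replicate 4 alone, and the next highest BI-treated tumor had 12.3 CPM. Rassf1, on the same scale, was at 82.0 to 107 CPM and 83.1 to 128 CPM. The epithelial sum itself, mostly Krt8 and Krt18, lay under the whole vehicle group in 5 of 6 BI-treated tumors. Its part in the fall of Rassf6 and Rassf7 was not tested.

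Variation between tumors of the same treatment did not enter the choice of the family. It was measured after subtracting the group mean of log2 CPM for the 8 members tested, over 9 tumors, with all 4320 exchanges of tumors within groups as an exact permutation test. Of the 28 pairs, 13 correlated positively. Rassf1 and Rassf7 gave the highest correlation, with Pearson's r = 0.876 (two-sided exact permutation p = 0.0125, adjusted p = 0.290 over 28 pairs) and Spearman's rho = 0.800 (exact p = 0.0324, adjusted 0.302). Rassf2 and Rassf4 gave r = 0.751 (exact permutation p = 0.0299, adjusted 0.290) and rho = 0.733 (exact p = 0.0187, adjusted 0.263). Rassf4 and Rassf8 ran opposite to each other, with r = -0.799 (exact permutation p = 0.031, adjusted 0.290) and rho = -0.867 (exact p = 0.0088, adjusted 0.246). Without the 2 tumors farthest from the median of the first gene named, r was 0.643, 0.563 and -0.591 for these pairs. No pair passed after adjustment, and 3 passed 0.05 before it in the exact permutation test on r.

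On the same scale, the genes most like each member were listed by Pearson's r over the 9 tumors among the genes with a mean log2 CPM of at least 1, as a description and without p, since the highest of 12185 correlations is high in any case. For Rassf2 they were Fancc (0.946), Gpr183 (0.942) and Pde3b (0.932). For Rassf4 they were Ptger4 (0.982), Apobec1 (0.958) and Lyn (0.953), and for Rassf5 Sgk3 (0.978), Tacc1 (0.960) and Birc3 (0.953). None of these genes was shared between the lists of the 3 members. Those of Rassf6 were Ptbp2 (0.984), Coq10a (0.978) and Nr6a1 (0.961), and those of Rassf7 were Csrp1 (0.942), Hscb (0.933) and Mccc2 (0.931). Rassf1 was most like Gipc2 (0.987), Scx (0.967) and Ugdh (0.963), Rassf3 most like Atrip (0.984), Hivep2 (0.974) and Sema6a (0.973), and Rassf8 most like Tmem191c (0.954), Mocs1 (0.934) and Rnf185 (0.934).

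Known partners and pathway genes of RASSF proteins were examined as 5 lists with 52 genes, all of them tested. The lists were chosen with earlier results of these data known. Their calls and adjusted p values are given as a description and support nothing by themselves. By edgeR's quasi-likelihood test, 8 rose and 10 fell with the same threshold on the adjusted p, or 15.4% and 19.2%, beside 14.6% and 14.1% of all genes. The median log2 fold change was -0.02 over the 52 genes and -0.00 over all genes. Without vehicle replicate 3, or without BI replicate 4, 6 partner genes fell, while the share of all genes that fell also went down, to 8.29% and 11.5%.

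The kinases that pair with RASSF proteins through SARAH moved little. Stk4, which encodes MST1, rose from 119 ± 5.92 CPM (SD, n = 3) to 134 ± 5.95 CPM (n = 6), or 0.17 on the log2 scale (standard error 0.0566, adjusted p = 0.0440 in edgeR). Stk3, which encodes MST2, had 94.8 ± 2.78 CPM and 84.0 ± 5.40 CPM, a difference of -0.17 on the log2 scale (standard error 0.0609) just outside edgeR's threshold (adjusted p = 0.05005). Sav1, the adaptor of the MST kinases, which carries a SARAH domain too, was at 194 ± 16.7 CPM and 186 ± 7.24 CPM (log2 fold change -0.06, adjusted p = 0.482 in edgeR). Of the 10 genes of this list, Lats2, a kinase downstream of MST, also passed and fell by 0.27 on the log2 scale (adjusted p = 0.00991). The call of Stk4 was lost in 10 of 16 alternatives, namely without a filter on low counts, with edgeR's likelihood ratio test, without any 1 of the vehicle-treated tumors and without BI replicate 1, 2, 3, 4 or 6. That of Lats2 was lost without vehicle replicate 3, and Stk3 was called by DESeq2, by limma-voom and without BI replicate 3.

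STRIPAK, the phosphatase complex that counters the MST kinases, had 3 of 12 genes falling and 1 rising. Its recruiting subunit Slmap fell by 0.19 (adjusted p = 0.0370 in edgeR), the striatin Strn3 by 0.23 (adjusted p = 0.00684) and the kinase Stk24 by 0.24 (adjusted p = 0.00810) on the log2 scale. Stk26, a kinase of the same family, rose from 2.65 ± 0.536 CPM to 4.87 ± 1.14 CPM (log2 fold change 0.87, adjusted p = 0.0128 in edgeR). Without vehicle replicate 1 or 2 its log2 fold change was 0.83 or 0.75 and the call was lost (adjusted p = 0.0509 and 0.0575 in edgeR). The call of Slmap was lost without vehicle replicate 2 or 3 or BI replicate 4, 5 or 6, and without a filter on low counts.

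Among 11 RAS and RAP GTPases, Rap2b rose from 47.0 ± 4.83 CPM to 69.5 ± 5.81 CPM (log2 fold change 0.56, adjusted p = 0.000594 in edgeR) and Rap1b, which encodes a form of RAP1, from 435 ± 3.70 CPM to 526.1 ± 26.5 CPM (0.27, adjusted p = 0.00584). Rras2 fell by 0.39 on the log2 scale (adjusted p = 0.000749 in edgeR). Hras and Nras were not called.

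The list of the RAPL axis, through which the short form of Rassf5 acts on integrins, had 4 of 7 genes rising and 1 falling, with a median log2 fold change of 0.52. Itgal, the alpha chain of LFA-1, rose from 38.6 ± 5.11 CPM to 78.6 ± 12.7 CPM (log2 fold change 1.03, adjusted p = 0.000264 in edgeR). Its beta chain Itgb2 rose from 282 ± 9.43 CPM to 345 ± 19.8 CPM (0.29, adjusted p = 0.00510). The adaptors Skap1 (log2 fold change 1.26, adjusted p = 0.00103 in edgeR) and Fyb1 (0.90, adjusted p = 5.16e-05) rose as well, while Apbb1ip, which encodes the RAP1 effector RIAM, fell by 0.20 (adjusted p = 0.0371), a call lost with library size alone, without vehicle replicate 1 or 2 and without BI replicate 2, 3, 4 or 6. Rasgrp2 (log2 fold change 0.52) and Rapgef1 (-0.05, at 209.5 CPM with vehicle and 203 CPM with BI) were not called. The list was drawn up for the integrin axis of leukocytes, but not every gene on it need be particular to them. The macrophage, T cell and NK markers above were higher in the same tumors, and the part of leukocyte number in these changes was not tested.

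Of 12 other direct partners, 4 fell and none rose. Pawr, which encodes the pro-apoptotic protein Par-4, a partner of Rassf2, went from 46.8 ± 6.34 CPM to 24.7 ± 3.94 CPM (log2 fold change -0.93, adjusted p = 0.000426 in edgeR). Ppp1r13l, which encodes iASPP, went from 24.2 ± 2.69 CPM to 12.8 ± 2.11 CPM (-0.92, adjusted p = 0.000362). Trp53bp2, which encodes ASPP2, fell by 0.16 on the log2 scale (adjusted p = 0.0434 in edgeR), a call lost in 11 of 16 alternatives, among them without any 1 of the vehicle-treated tumors or BI replicate 1, 3, 4, 5 or 6. Cnksr1, a scaffold of RAS signaling, fell by 0.41 (adjusted p = 0.0365 in edgeR), a call lost without a filter on low counts, without vehicle replicate 1 or 3 and without BI replicate 3, 4, 5 or 6. Map2k7, the partner of Rassf7, and Pam, the partner of Rassf9, were not called. Pam was nonetheless present at 566 ± 46.1 CPM and 574 ± 135 CPM, while Rassf9 itself had at most 11 counts in any tumor.

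**Figure D4:**
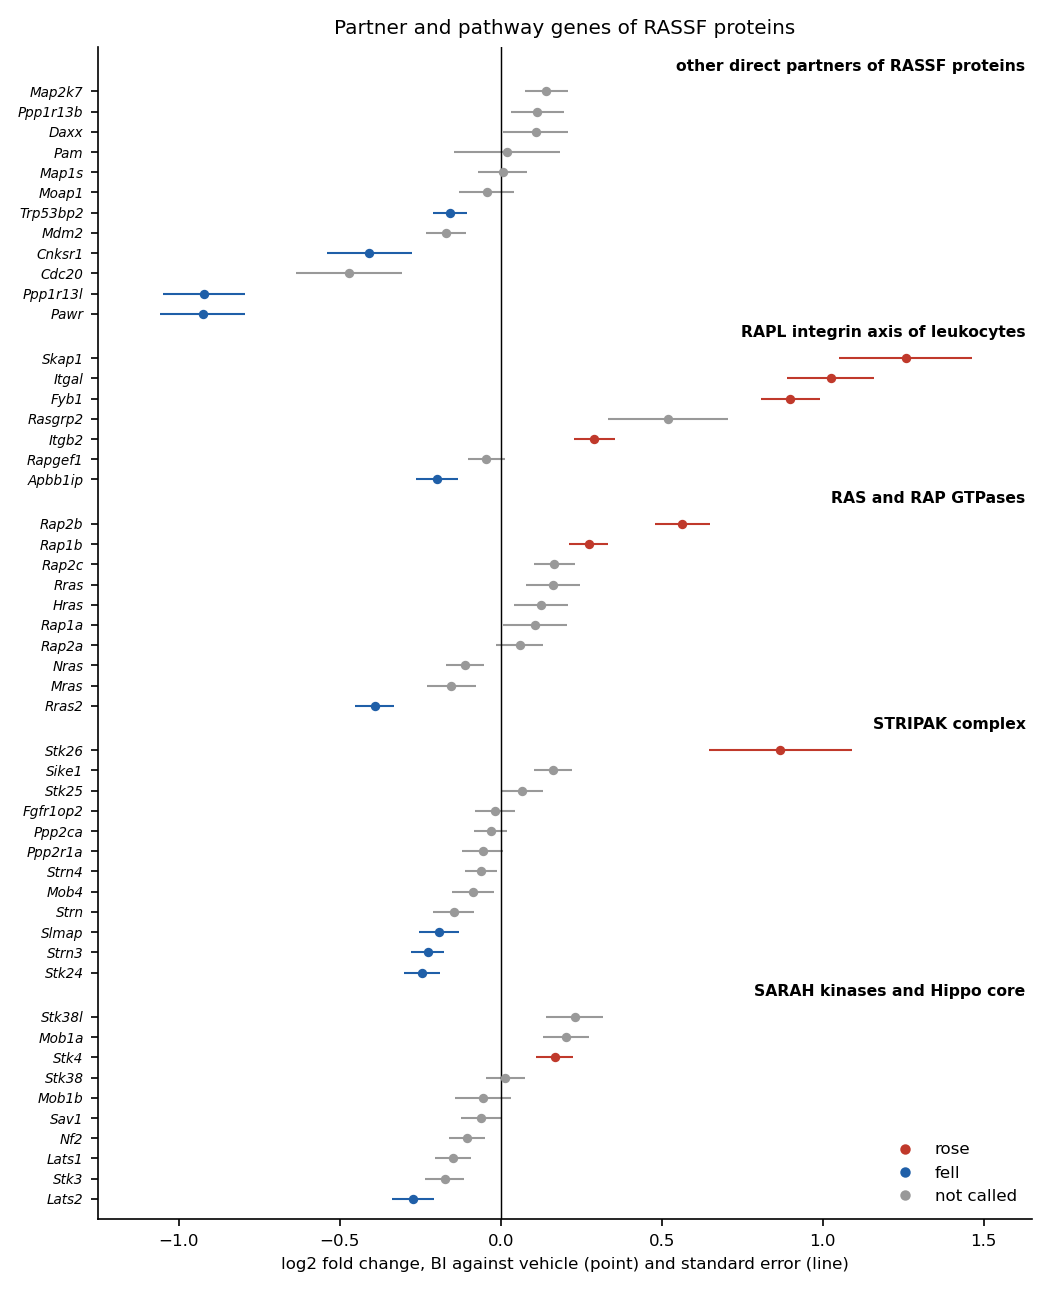
Log2 fold change of BI against vehicle (horizontal axis, points) with its standard error (lines) for the partner and pathway genes of 5 lists, except 1 gene that is not shown. Red genes rose and blue genes fell in edgeR's quasi-likelihood test (threshold 0.05 on the adjusted p), and grey genes were not called. Skap1 and Itgal of the RAPL axis lie farthest to the right at 1.26 and 1.03, and Pawr and Ppp1r13l farthest to the left at -0.93 and -0.92.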

How the data were processed

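The authors aligned the paired-end reads of 9 stranded messenger RNA libraries to mm9 with STAR, kept unique hits, and used QuasR to count, for each gene, reads whose start fell in a RefSeq exon. The deposited values are raw counts, and the deposited gene length (another column) served for RPKM. The version of STAR and the use of strand in counting are not given in the sources used here. RefSeq gave a symbol for 18700 of the 18755 Entrez identifiers, and GENCODE vM1 the positions on mm9.

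edgeR 4.0.16 in R 4.3.3 tested BI against vehicle with TMM factors, filterByExpr (minimum count 10, minimum total 15) and the quasi-likelihood F test without covariates, with Benjamini-Hochberg adjustment over the 13966 genes tested. The fit was tested on simulated data. Fold changes come from this fit, with a prior count of 2 for log2 CPM. The standard errors are the absolute log2 fold change divided by the square root of the F statistic. Alternatives were RLE factors, library size alone, no filter, a filter of 1 CPM in 3 tumors, the likelihood ratio test of edgeR, DESeq2 1.42.0, limma-voom (limma 3.58.1) and leaving out each tumor in turn.

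Members and lists were chosen with earlier results of these data known. Of 52 partner genes and 72 cell type markers, 52 and 71 were matched. Named were all members, all called partner genes with Stk3, Stk4 and Sav1, the summed markers, and the 3 genes most like each member. The motifs, the ratios to marker sums and the correlations between members were added after the counts had been seen. Hras, Nras, Map2k7, Pam, Rasgrp2, Rapgef1, Epcam, Krt7, Krt14, Krt19, Cdh1, Prf1 and Klrk1 were named after their values were seen. The values of 1 partner gene, counted in its list, are not reported here. Replicate numbers follow the order of deposition and pair no samples.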

Additional observations from a re-analysis of the deposited data

Results flagged for a closer look

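Among 40 sets of 6 BI-treated tumors examined (members, named partner genes and marker sums), 1 held a tumor far from the others. Chance gives about 1 in 20 sets, so 1 flag among 40 is no more than chance gives. The sets come from the same tumors and are not independent. The summed adipocyte markers were 252 CPM in BI replicate 6, and the next highest BI-treated tumor had 121 CPM. Without that tumor, the members called were the same 3 rising and 2 falling in number, and the log2 fold change of Rassf5, whose highest value came from it, stayed within the range given for leaving out each tumor.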

How the results depend on the processing

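In all 16 alternatives 3 members rose and 2 fell, and each of Rassf2, Rassf4, Rassf5, Rassf6 and Rassf7 kept its direction and its call. The calls of Rassf1, Rassf3 and Rassf8 stayed absent. The log2 fold change of Rassf8, which was not called, ranged from -0.0681 to 0.177 over the omission of single tumors and was negative without vehicle replicate 1 (-0.0681), vehicle replicate 3 (-0.0094) or BI replicate 2 (-0.017). That of Sav1, not called either, ranged from -0.1088 to 0.0095 and was positive without vehicle replicate 3 alone. With single tumors omitted, 6 to 10 partner genes rose and 6 to 10 fell, beside 9.43% to 14.5% and 8.29% to 14.2% of all genes tested. DESeq2 gave 11 rising and 14 falling, beside 16.4% and 15.4% of all genes. No paired analysis was possible because the tumors come from different mice and carry no shared numbers. Depth limits Rassf9 and Rassf10, with at most 11 counts per tumor. With 3 vehicle-treated tumors, the spread of that group is poorly known.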
